A study of Mus musculus with 2 samples.

Results

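The 10 genes described here are expressed by endothelial cells, the lining cells of blood vessels, and some of them also by other cells. The 10 genes were measured in 2 RNA-seq libraries labelled as mouse retina. They are the junction and adhesion genes Cdh5, Pecam1, Esam and Cldn5, the receptor genes Tie1, Tek and Eng, and the genes for the surface sialomucin Emcn, the secreted clotting protein Vwf and the transcription factor Ets1. Members were the rows whose gene name equalled a listed symbol, and the VEGF receptors were left out of the list. Each of the 10 members had exactly 1 row in both count tables, out of 52636 genes. One library came from miR-29a KO mice, which lack the microRNA miR-29a, and 1 from WT mice. All mice were C57BL/6 and 8 weeks old, and each library was made from a pool of retinas from 3 animals. The labels do not say how the deletion was made. With 1 library per genotype there are no replicates, so each difference below compares these 2 libraries and not the genotypes.

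Endothelial cells hold to each other by adherens junctions built on VE-cadherin (Cdh5), by tight junctions that contain claudin-5 (Cldn5), and by immunoglobulin-type adhesion proteins such as PECAM-1 and ESAM. In the retina these junctions form the inner blood-retina barrier. TIE2, the product of Tek, is the receptor for angiopoietins and keeps vessels quiet. TIE1 is its partner receptor and can form complexes with it. Endoglin (Eng) is a co-receptor for BMP9 and is also made by macrophages and stromal cells, and ETS1 is made by many cell types.

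The library labelled KO held 24876925 counts over 19545 detected genes, and the library labelled WT 26805902 counts over 19346 genes. Levels are given as CPM, the count per 1000000 counts of its library. The limit set by a count of 0, taken as 3 counts, was 0.121 CPM in the library labelled KO and 0.112 CPM in the library labelled WT. Both libraries went against the tissue label. The 14 retinal markers looked at, which include Opn1sw, Gnat1, Sag, Grm6 and Pou4f2, summed to 1.73 CPM in the library labelled KO and 2.09 CPM in the library labelled WT, and 7 of them had 0 counts in both. The 10 fibroblast markers summed to 11537 and 10203 CPM in the libraries labelled KO and WT. The X-inactivation RNA Xist had 0 counts in the library labelled KO and 4288 in the library labelled WT, while 4 Y-linked genes together had 1092 (KO) and 164 (WT) counts, so the libraries also differed in RNA of the sex chromosomes. The targeted gene, Mir29a, had 0 counts in both and so checks neither label. The libraries are therefore called by their labels, and KO or WT after a value names the library it came from.

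The member genes split into a set that was higher in the library labelled KO and a set at a similar level in both. Cdh5, Pecam1 and Tie1 were 2.95- to 3.55-fold higher in the library labelled KO, and Esam lay just under the threshold used. Among all genes past the count minimum given below, 4.47% were higher by that threshold and 2.82% lower. Pecam1, Tie1 and Esam passed the minimum only through the library labelled KO, so they had to differ. Tek, Emcn, Eng and Ets1 differed by less than 1.5-fold, but the counting intervals of Eng and Ets1 excluded no difference. A GC and length correction moved Emcn to a log2 ratio of -0.61, so this grouping depends on the processing. Cldn5 and Vwf were too scarce to place.

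**Figure D1:**
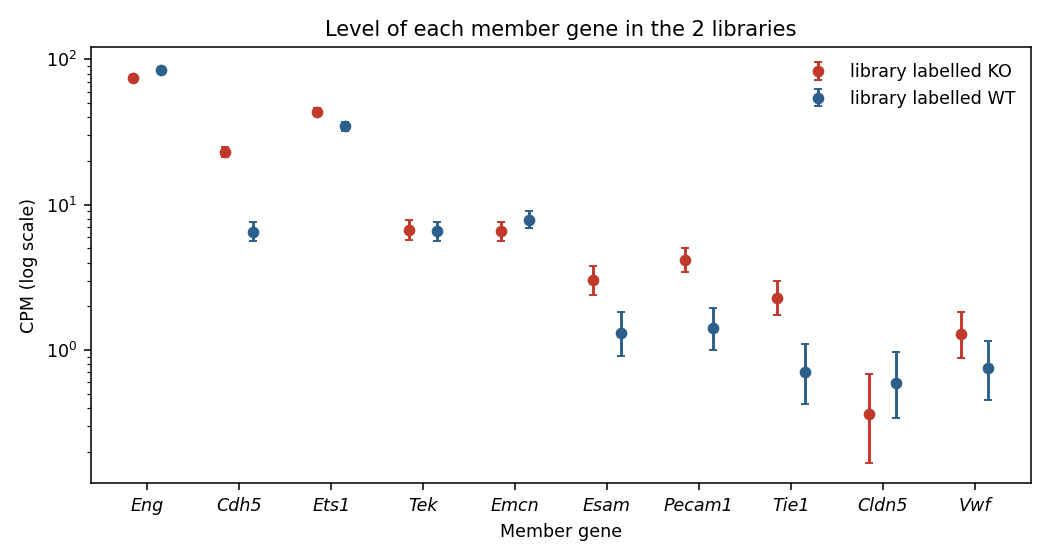
Level of each member gene in CPM (log axis) in the library labelled KO (red, left) and the library labelled WT (blue, right), with exact 95% Poisson intervals that cover counting error only. Genes are ordered by FPKM in the library labelled KO. The interval of the ratio excluded no difference for Cdh5, Pecam1, Esam, Tie1 and Ets1 (higher in KO) and for Eng (lower in KO). It included no difference for Tek, Emcn, Cldn5 and Vwf. Pecam1, Tie1 and Esam passed the count minimum given below only through the library labelled KO, so they had to differ. The interval of the ratio excluded no difference for 71.5% of all genes past that minimum. A difference beyond counting error is therefore usual between these libraries.

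Among the junction genes, Cdh5 (ENSMUSG00000031871, chr8:104101625-104144511, GRCm38, plus strand) encodes VE-cadherin. It had 576 counts in the library labelled KO and 175 in the library labelled WT, or 23.2 CPM in KO (exact 95% counting interval 21.3 to 25.1) and 6.53 CPM in WT (5.60 to 7.57). The CPM ratio was 3.55-fold higher in the library labelled KO (interval 2.99 to 4.22). Of all genes that reached 50 counts in at least 1 library, 98.7% had a lower log2 ratio than Cdh5. An antisense gene, Gm29682, overlaps the Cdh5 locus, and it had 0 counts in both libraries.

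Pecam1 (ENSMUSG00000020717, chr11:106654217-106750628, minus strand) encodes an adhesion protein of endothelial cell borders that platelets and some leukocytes also carry. It had 104 counts in the library labelled KO and 38 in the library labelled WT, which is 4.18 CPM in KO (3.42 to 5.07) and 1.42 CPM in WT (1.0 to 1.95). The ratio was 2.95-fold (2.02 to 4.40). Esam (ENSMUSG00000001946, chr9:37528078-37538319, plus strand), which encodes an adhesion protein of endothelial tight junctions and platelets, had 75 and 35 counts in the libraries labelled KO and WT. Its levels were 3.01 CPM in KO (2.37 to 3.78) and 1.31 CPM in WT (0.909 to 1.82), a ratio of 2.31-fold (1.53 to 3.55). On the log2 scale used for calls, which adds 0.5 CPM to each value, its log2 ratio was 0.96 and stayed below the threshold of 1.

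Cldn5 (ENSMUSG00000041378, chr16:18776847-18778262, plus strand), the main claudin of the blood-retina barrier, could not be placed with them. It had 9 counts in the library labelled KO and 16 in the library labelled WT, or 0.362 CPM in KO (0.165 to 0.687) and 0.597 CPM in WT (0.341 to 0.969). The ratio of KO over WT was 0.606 with an interval of 0.236 to 1.46, so neither direction was detectable at this depth.

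The receptors Tie1 and Tek gave different values although they encode partner receptors. Tie1 (ENSMUSG00000033191, chr4:118471191-118490061, minus strand) had 57 counts in the library labelled KO and 19 in the library labelled WT, which is 2.29 CPM in KO (1.74 to 2.97) and 0.709 CPM in WT (0.427 to 1.11). Its ratio was 3.23-fold (1.89 to 5.75). Tek (ENSMUSG00000006386, chr4:94739289-94874976, plus strand) had 167 and 176 counts in the libraries labelled KO and WT, at 6.71 CPM in KO (5.73 to 7.81) and 6.57 CPM in WT (5.63 to 7.61). The Tek ratio was 1.02-fold (0.822 to 1.27). Within a library the scaling cancels, and the count of Tie1 over that of Tek was 0.341 (0.248 to 0.464) in the library labelled KO and 0.108 (0.0635 to 0.174) in the library labelled WT. These 2 intervals do not overlap. Tie1 reached 50 counts only in the library labelled KO, so it had to differ, and the ratio to Tek is no separate support. How many pairs of genes differ as much was not computed.

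Promoters of both receptor genes are printed because this pair differed, and because ETS factors such as ETS1 bind the core GGAA. The sequences are from RefSeq (GRCm38.p6), 5′ to 3′ on the gene's strand, from 250 bases before to 50 after RefSeq's start of the gene. Capitals mark each GGAA or its reverse complement TTCC, on either strand, and these 2 words cannot overlap.
Tie1 promoter, chr4:118489800-118490099, minus strand: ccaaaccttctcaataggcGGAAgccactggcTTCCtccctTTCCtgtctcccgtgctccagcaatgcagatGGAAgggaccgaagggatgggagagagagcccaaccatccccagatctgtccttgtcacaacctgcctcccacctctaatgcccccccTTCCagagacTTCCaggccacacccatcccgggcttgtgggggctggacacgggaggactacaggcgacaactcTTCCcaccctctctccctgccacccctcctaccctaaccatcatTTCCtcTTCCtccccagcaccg
Tek promoter, chr4:94739039-94739338, plus strand: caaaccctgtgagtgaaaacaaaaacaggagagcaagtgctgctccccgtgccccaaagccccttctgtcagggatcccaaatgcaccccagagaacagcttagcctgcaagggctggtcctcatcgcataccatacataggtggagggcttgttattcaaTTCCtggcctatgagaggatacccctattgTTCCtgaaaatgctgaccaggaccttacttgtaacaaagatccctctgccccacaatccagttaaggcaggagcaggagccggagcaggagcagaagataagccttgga
RefSeq's start of Tie1 lies 212 bases inside the GENCODE gene given above, while that of Tek is the same in both, so the windows are placed differently against the GENCODE starts. The Tie1 window held 9 matches and the Tek window 2. The median over 32851 promoters of this length was 3, and 96.0% held at least 1. As many as 9 matches were found in 1.59% of promoters, and 2 or more in 84.6%. Windows were at hand for 5 members, and Emcn held 6 matches, Eng 4 and Cldn5 0. A match describes these letters and is not a binding site.

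Eng (ENSMUSG00000026814, chr2:32646595-32682669, plus strand) was the member with the most reads. It had 1843 counts in the library labelled KO and 2275 in the library labelled WT, or 74.1 CPM in KO (70.7 to 77.5) and 84.9 CPM in WT (81.4 to 88.4). In the library labelled KO it stood 1.15-fold lower (1.08 to 1.22). Its 3′ end overlaps Fpgs on the other strand by 61 bases. The library kit does not mark strand, so reads of that overlap could not be told apart. Fpgs had 597 counts in the library labelled KO and 941 in the library labelled WT.

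Emcn (ENSMUSG00000054690, chr3:137341067-137432185, plus strand) encodes endomucin, a sialomucin of capillary and venous endothelium. It had 163 counts in the library labelled KO and 212 in the library labelled WT, at 6.55 CPM in KO (5.58 to 7.64) and 7.91 CPM in WT (6.88 to 9.05). The ratio of KO over WT was 0.828 with an interval of 0.671 to 1.02, which includes no difference. Vwf (ENSMUSG00000001930, chr6:125546774-125686679, plus strand), whose product is stored in endothelial Weibel-Palade bodies and in platelets, had 32 and 20 counts in the libraries labelled KO and WT. Its levels were 1.29 CPM in KO (0.880 to 1.82) and 0.746 CPM in WT (0.456 to 1.15), and its ratio was 1.72-fold (0.956 to 3.18).

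Ets1 (ENSMUSG00000032035, chr9:32636221-32757820, plus strand) had 1088 counts in the library labelled KO and 927 in the library labelled WT, which is 43.7 CPM in KO (41.2 to 46.4) and 34.6 CPM in WT (32.4 to 36.9). The ratio was 1.26-fold (1.16 to 1.38). The antisense gene Gm27240 within its locus had 3 counts in the library labelled KO and 0 in the library labelled WT.

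Ets1 was also the only one of the 10 members with a full match to bases 2 to 8 of the deleted microRNA in its annotated 3′ UTR. The sequences of the microRNA named in the labels and of that site are shown for that match. Both are written 5′ to 3′, with the seed of miR-29a-3p (bases 2 to 8, RefSeq, GRCm38.p6) and the matching heptamer in capitals.
miR-29a-3p, chr6:31062673-31062694, minus strand: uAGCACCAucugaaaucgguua
Ets1 3′ UTR site, chr9:32755749-32755775, plus strand (GENCODE M21): cctttgaagactTGGTGCTcgtcaggt
The heptamer TGGTGCT began at position 1336 of a 3395-base 3′ UTR and was not followed by A. The same letters were absent from the 3′ UTRs of the other 9, which were 140 to 1513 bases long. Of 11518 genes past the count minimum with an annotated 3′ UTR, 14.8% held the heptamer, so 1 member in 10 is close to the share among all genes. Cdh5, Pecam1, Tie1 and Esam, the members with the highest ratios, held none. Other forms of seed match were not searched for. A match does not show that the microRNA acts on the gene.

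Counted against all genes, 3 members were higher by 2-fold or more (log2 ratio of 1 or more after adding 0.5 CPM) and 0 were lower. These were Cdh5, Pecam1 and Tie1, of the 8 members that reached 50 counts in either library. Among all 12382 genes past that minimum, 4.47% were higher by that rule and 2.82% lower. The median log2 ratio was 0.65 for the 8 members, which ran from -0.25 to 1.75, and 0.06 for all genes, with quartiles of -0.25 and 0.37. Pecam1, Tie1 and Esam passed the minimum only through the library labelled KO, so these 3 had to differ, and the count and median over the 8 are no support for a shift of the list. Of the 5 members with 50 or more counts in both libraries, 1 was higher by 2-fold (Cdh5), against 3.06% of 11602 such genes. Scarce genes scatter more. Among 2553 genes with 50 to 199 counts in the higher library, 8.38% were higher and 5.33% lower, and of the 4 members in that range (Pecam1, Tie1, Tek and Esam) 2 were higher and 0 lower.

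Counting error alone gives a measure of precision for single genes. The whole counting interval lay above 2-fold for 2 members, Cdh5 and Pecam1, against 3.0% of all genes past the minimum. It excluded a ratio of 1 for 6 of the 8 members, 5 above and 1 below. The same held for 71.5% of all genes past the minimum, 40.3% above and 31.2% below, so an interval that excludes 1 is usual between these 2 libraries. Pecam1, Tie1 and Esam passed the minimum only through the library labelled KO, so these counts of members are no support for a shift of the list either. The reads carry no molecular identifiers and so are not independent molecules, and these intervals hold no biological spread.

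**Figure D2:**
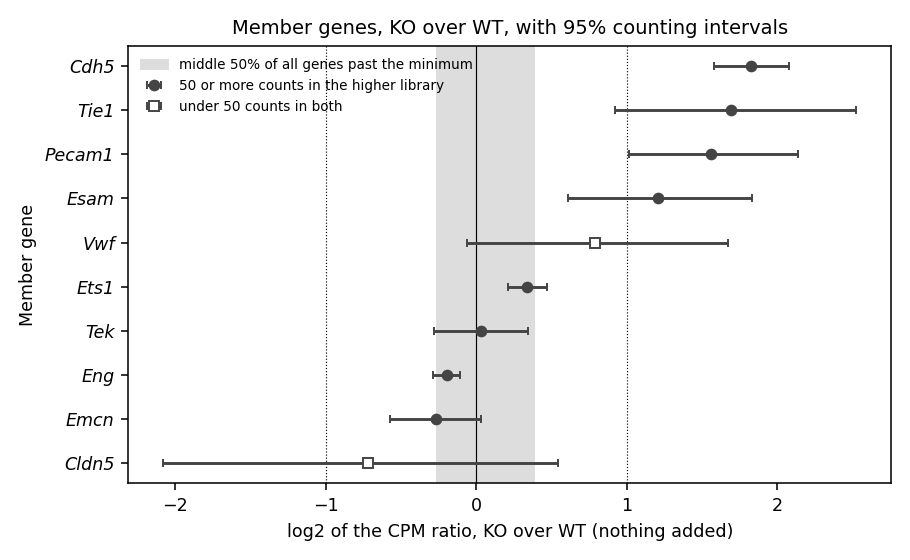
CPM ratio of KO over WT for each member on a log2 axis, with nothing added to the values. Points are ratios, bars are exact 95% counting intervals, open squares mark the 2 members under 50 counts in both libraries, the grey band is the middle 50% of all genes past the minimum, and dotted lines mark 2-fold. Cdh5 and Pecam1 have intervals wholly past 2-fold, while Tek, Emcn, Cldn5 and Vwf have intervals that include no difference.

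**Figure D3:**
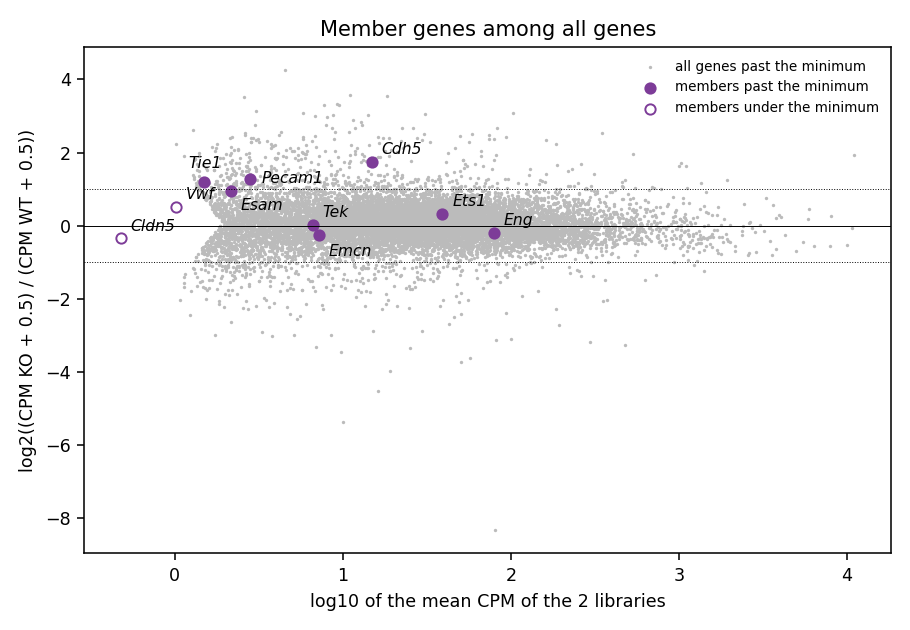
Log2 ratio of KO over WT (0.5 CPM added) against the log10 of the mean CPM, for 12382 genes past the minimum (grey) and the 10 members (purple, open where under the minimum). Cdh5 stands above most genes of its level, while Ets1, Tek, Emcn and Eng lie within the bulk.

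Levels can be set side by side between genes per length, as the authors' FPKM. In the library labelled KO, Eng led at 18.6 FPKM (counting interval 17.8 to 19.5). Cdh5 at 5.61 FPKM (5.16 to 6.08) and Ets1 at 5.25 FPKM (4.94 to 5.57) followed and did not differ beyond counting error. Tek (1.45 FPKM), Emcn (1.23 FPKM) and Esam (1.07 FPKM) came next with overlapping intervals. Pecam1 (0.683 FPKM), Tie1 (0.474 FPKM), Cldn5 (0.260 FPKM) and Vwf (0.0815 FPKM) were last. In the library labelled WT, Eng also led at 22.2 FPKM, and Ets1 was second at 4.32 FPKM (4.04 to 4.60). Cdh5 was at 1.64 FPKM (1.41 to 1.91), beside Emcn (1.55 FPKM) and Tek (1.47 FPKM), whose intervals overlapped with it. Below them stood Esam (0.482 FPKM), Cldn5 (0.446 FPKM), Pecam1 (0.241 FPKM), Tie1 (0.152 FPKM) and Vwf (0.0491 FPKM).

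In the order of levels, Cdh5 stood beside Ets1 in the library labelled KO and beside Emcn and Tek in the library labelled WT. The count of Cdh5 over that of Emcn was 3.53 (2.96 to 4.23) in the library labelled KO and 0.825 (0.672 to 1.01) in the library labelled WT. Relative to Pecam1 the intervals overlapped, at 5.54 in KO (4.49 to 6.89) and 4.61 in WT (3.23 to 6.72). Among detected genes ranked by FPKM, Cdh5 was in the top 32.3% of the library labelled KO and the top 51.2% of the library labelled WT. Eng was in the top 15.2% (KO) and 13.7% (WT), and Vwf in the top 84.0% (KO) and 89.7% (WT).

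Eng and Ets1 held 71.2% of the members' counts in the library labelled KO and 82.3% in the library labelled WT. All 10 members summed to 165 CPM in the library labelled KO and 145 CPM in the library labelled WT, a ratio of 1.14-fold (1.09 to 1.19). Without Eng and Ets1, a choice made after the values were seen, the other 8 summed to 47.6 (KO) and 25.8 (WT) CPM (1.84-fold, 1.68 to 2.03). Without Cdh5 as well, the remaining 7 summed to 24.4 (KO) and 19.2 (WT) CPM (1.27-fold, 1.13 to 1.43), so most of that difference was in Cdh5. In such bulk libraries, differences in the number of endothelial cells, in RNA per cell and in other cells that carry these transcripts cannot be told apart.

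Other junction and surface adhesion genes were mixed. In this and the later lists, some genes passed the count minimum only through the library in which they were high, so they had to differ. Among the called genes named, these were Sele, F11r, Sox7, Podxl, Itgam and Ppbp (through KO) and Icam2 (through WT). Their calls are no support for a shift of a list. Of 22 listed, 20 passed the minimum, and 3 were higher, 2 lower and 15 neither, with a median log2 ratio of 0.26. Sele, the cytokine-induced endothelial selectin, had 127 counts in the library labelled KO and 15 in the library labelled WT (9.12-fold, 5.33 to 16.8). Selp, the selectin stored with VWF, had 884 (KO) and 405 (WT) counts (2.35-fold, 2.09 to 2.65), and the tight junction adhesion gene F11r 83 (KO) and 34 (WT) (2.63-fold). Selp and F11r were named after their values were seen, because these 3 were all of the higher ones. The lower ones were Icam1 and Icam2, which encode leukocyte adhesion ligands. Icam1 had 1211 counts in the library labelled KO and 4976 in the library labelled WT (3.81-fold lower, 3.58 to 4.06), and Icam2 had 18 (KO) and 65 (WT) (3.35-fold lower, 1.96 to 6.00). The cytoplasmic partner of cadherins Ctnnb1 was at 567 (KO) and 344 (WT) CPM with a log2 ratio of 0.72, and Vcam1 at 792 (KO) and 670 (WT) CPM with 0.24. Every listed gene here had a count in both libraries, but Cgn had 2 in each and Ocln, a tight junction gene, had 9 (KO) and 4 (WT).

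The ligands and partners of the Tie receptors also differed among themselves. Of 6 listed genes 5 passed the minimum, with 1 higher, 1 lower and 3 neither, and a median log2 ratio of -0.37. Angpt2, the context-dependent TIE2 ligand that endothelial cells release, had 237 counts in the library labelled KO and 53 in the library labelled WT (4.82-fold, 3.56 to 6.62). Angpt1, the TIE2 agonist made by mural and stromal cells, had 510 (KO) and 728 (WT) counts (log2 ratio -0.40). Angpt4, another angiopoietin, had 56 (KO) and 145 (WT) counts (2.40-fold lower, 1.75 to 3.33). Svep1, an extracellular matrix protein gene, had 1766 (KO) and 2460 (WT) counts (log2 ratio -0.37). Ptprb, the phosphatase VE-PTP that acts on TIE2 and VE-cadherin, had 23 counts in the library labelled KO and 0 in the library labelled WT, under the minimum.

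Partners of endoglin in BMP and TGF-beta signalling showed no 2-fold difference in either direction. Of 16 listed genes 14 passed the minimum, and their log2 ratios ran from -0.55 to 0.48 with a median of -0.01. Acvrl1, which encodes the BMP9 receptor ALK1, was at 24.4 CPM in the library labelled KO and 36.0 CPM in the library labelled WT (log2 ratio -0.55). The inhibitory Smad7 had a log2 ratio of 0.48, the receptor-regulated Smad9 -0.47, the target gene Id3 -0.39 and the receptor gene Tgfbr2 -0.12. The ligand genes Gdf2 (BMP9) and Bmp10 had 0 counts in both.

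Endothelial transcription factor genes held 2 higher and 0 lower among 12 past the minimum, of 18 listed, with a median log2 ratio of 0.22. Lmo2, a transcription cofactor gene that blood cells share, had 214 counts in the library labelled KO and 67 in the library labelled WT (3.44-fold, 2.60 to 4.60). Sox7 had 97 (KO) and 32 (WT) counts (3.27-fold, 2.17 to 5.04). The ETS family gene Erg had 85 (KO) and 55 (WT) counts (log2 ratio 0.62), and its relatives Elk3 and Ets2 had log2 ratios of 0.42 and 0.26. Fli1, another ETS family gene, had 53 (KO) and 63 (WT) counts (log2 ratio -0.12). Under the minimum, Sox17 had 19 counts in the library labelled KO and 0 in the library labelled WT, Sox18 31 (KO) and 9 (WT), and Hhex 31 (KO) and 10 (WT). Etv2 had 0 in both.

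Of 21 other endothelial surface and secreted genes 13 passed the minimum, and 3 were higher, 1 lower and 9 neither (median log2 ratio 0.43). Cd93, a C-type lectin gene that myeloid cells also express, had 724 counts in the library labelled KO and 179 in the library labelled WT (4.36-fold, 3.70 to 5.16). Podxl, a sialomucin gene, had 118 (KO) and 36 (WT) counts (3.53-fold, 2.41 to 5.28), and the thrombomodulin gene Thbd 15661 (KO) and 8116 (WT) (2.08-fold). Ramp2, which encodes a partner of the adrenomedullin receptor, had 236 (KO) and 614 (WT) counts (2.41-fold lower, 2.07 to 2.82). Tm4sf1 (723 CPM KO and 555 CPM WT) and Procr (505 CPM KO and 479 CPM WT) had the highest means over both libraries, with log2 ratios of 0.38 and 0.08. Of the 13, 10 had a log2 ratio above 0, while Egfl7 and Clec14a had -0.52 and -0.14. Several genes with a strong endothelial bias were scarce, such as Robo4 (25 counts KO and 12 WT), Ecscr (17 KO and 8 WT) and Adgrl4 (12 KO and 5 WT). Also under the minimum, Mmrn2 had 36 (KO) and 6 (WT) counts, Nos3 41 (KO) and 37 (WT), and Cyyr1 6 (KO) and 37 (WT). Aplnr had 16 (KO) and 1 (WT) counts, and Rasip1 had 49 (KO) and 33 (WT).

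**Figure D4:**
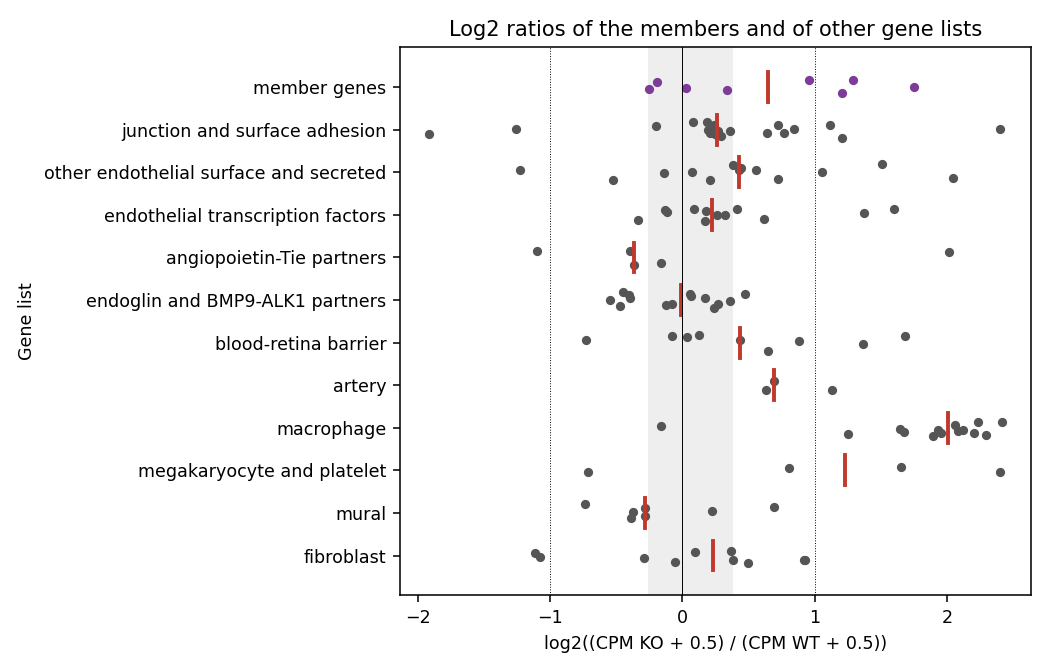
Log2 ratio of KO over WT (0.5 CPM added) of each gene past the count minimum, by list, with the member genes at the top. Red bars are medians, the grey band is the middle 50% of all genes and dotted lines mark 2-fold. The members span -0.25 to 1.75, while 13 of the 14 macrophage genes lie above 1.

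Other cell types can carry some of these transcripts, and their marker lists differed among themselves. Of 15 macrophage markers 14 reached the minimum, of which 13 were at least 2-fold higher and 0 lower. Their median log2 ratio was 2.01. Their summed level was 1623 CPM in the library labelled KO and 517 CPM in the library labelled WT. Fcgr3 had 690 (KO) and 128 (WT) counts, the mannose receptor gene Mrc1 1377 (KO) and 291 (WT), and the leukocyte integrin gene Itgam 81 (KO) and 8 (WT). Lyz2 was at 846 (KO) and 217 (WT) CPM, and Cd14 at 114 (KO) and 127 (WT) CPM. Cx3cr1 had 5 counts in the library labelled KO and 0 in the library labelled WT.

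Of 10 megakaryocyte and platelet genes 4 passed the minimum, with 2 higher and 0 lower. Pf4 had 799 (KO) and 152 (WT) counts (5.66-fold, 4.76 to 6.78) and Ppbp 129 (KO) and 35 (WT), while the integrin gene Itgb3 had a log2 ratio of 0.81. The other integrin gene of platelets, Itga2b, had 288 (KO) and 518 (WT) counts (log2 ratio -0.71), and Gp1ba had 3 (KO) and 13 (WT). The defining platelet genes Gp9, Gp6 and Treml1 had 0 in both, and the list summed to 230 (KO) and 130 (WT) CPM. Mural cell genes held 0 higher and 0 lower of 7 past the minimum (12 listed, median log2 ratio -0.29, summed 486 (KO) and 530 (WT) CPM). In that list Pdgfrb was at 158 (KO) and 208 (WT) CPM, Anpep at 136 (KO) and 165 (WT) CPM, Acta2 had a log2 ratio of 0.69 and Notch3 -0.74. Of 11 lymphocyte genes 1 passed, Cd4 with 221 (KO) and 53 (WT) counts, while Cd3e, Cd3g, Cd2, Cd8a, Ms4a1 and Nkg7 had 0 in both, and the list summed to 9.77 (KO) and 3.28 (WT) CPM. Fibroblast markers held 0 higher and 2 lower of 10 (median log2 ratio 0.23). These were Fbln1 (2.17-fold lower) and Postn (2.12-fold lower), and Dcn had a log2 ratio of 0.93, Mgp 0.10 and Col1a2 -0.06. Red blood cell genes summed to 0.161 (KO) and 0.0373 (WT) CPM over 6 genes. The part of macrophage or other cells in the values of Pecam1, Eng, Ets1 and the other members was not tested.

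**Figure D5:**
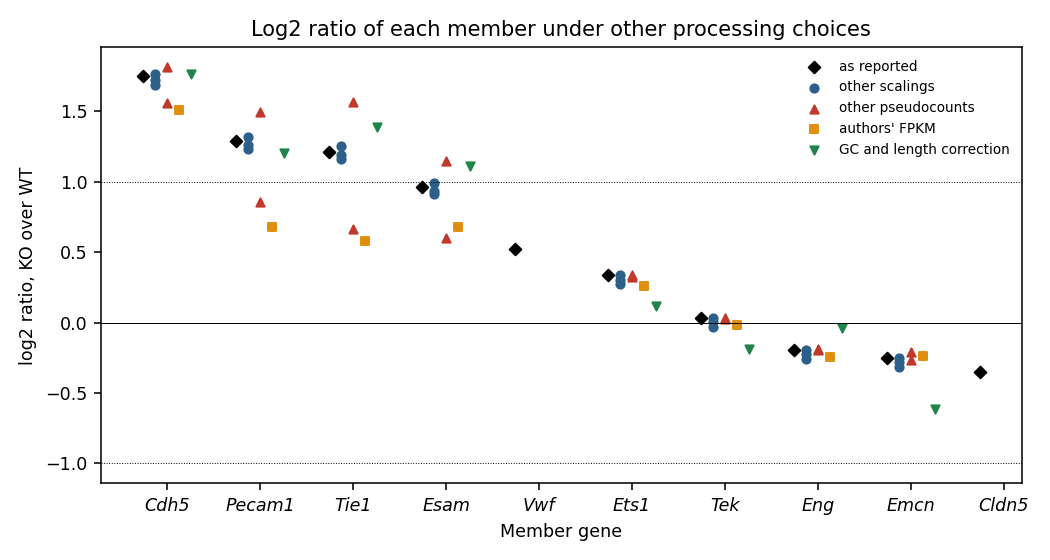
Log2 ratio of each member under the reported processing (black diamonds) and under other scalings, pseudocounts, the authors' FPKM and a GC and length correction. Dotted lines mark 2-fold. Cdh5 stayed between 1.51 and 1.81, Pecam1 and Tie1 crossed the 2-fold line with a larger pseudocount or with FPKM, and Esam lay on either side of it.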

How the data were processed

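Retinas of 3 mice were pooled per library, ribosomal RNA was removed and libraries were made with a kit that does not mark strand, per the labels' protocols. Per the submitters' processing notes, HISAT2 was used with the mm10 genome build (GRCm38). Which counter, annotation release, strand setting and FPKM scaling the authors chose is not given in the sources used here. For every gene the deposited tables hold a whole-number count and an FPKM, per the file headers.

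From the deposited counts, CPM was computed over each library's total, log2 ratios of KO over WT after adding 0.5 CPM, and folds as CPM ratios with nothing added. Fold intervals are exact conditional binomial (Clopper-Pearson) and level intervals exact Poisson, both at 95% and covering counting error only. Genes that reached 50 counts in either library entered counts and medians, and a gene was called at an absolute log2 ratio of 1. For 4 genes the count to FPKM ratio differed between tables by over 1%, and they were left out. With 1 library per group no test was run and no p-value is given. The authors' FPKM entered for levels between genes and as an alternative.

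Positions and 3' UTRs are from GENCODE M21 (GRCm38), using the principal protein-coding transcript with the longest 3' UTR. Named genes were all members, and of each other list the 3 with the largest absolute log2 ratio and the 2 most abundant past the minimum. A further few, among them genes under the minimum, were chosen after their values were seen. The members and lists were chosen with earlier results of these data known, and the range of 50 to 199 counts after the counts were seen. The fold intervals were run on simulated Poisson counts, the model that they assume, which checks the computation and not their fit to these libraries. TMM factors came from edgeR 4.0.16 in R 4.3.3. The rest was done in Python 3.11.15 with scipy 1.17.1, pandas 2.3.3 and numpy 2.4.6, and plots were drawn with matplotlib 3.10.9.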

Additional observations from a re-analysis of the deposited data

How the results depend on the processing

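The count of 3 members higher by 2-fold was kept as Cdh5, Pecam1 and Tie1 with no minimum, with a library total that left out the most counted and mitochondrial genes, and with either median-of-ratios or TMM factors. It was 4, with Esam, at a pseudocount of 0.1 CPM, a 1.5-fold threshold or a GC and length correction. It was 1, Cdh5 alone, at a pseudocount of 2 CPM, with the authors' FPKM (0.5 added), at a minimum of 200 counts (4 members left) and over members with 50 counts in both libraries (5 left). The first 2 of these settings shrink the ratios of low values, and the other 2 drop Pecam1 and Tie1. The count of lower members was 0 in every setting run. The median log2 ratio was 0.0698 at the 200-count minimum and 0.0298 over members with 50 counts in both libraries, against 0.65, and 0.33 to 0.96 when single members were left out. The lowest value came without Cdh5, Pecam1, Tie1 or Esam. The log2 ratio of the summed counts was 0.19, 0.12 under median-of-ratios factors and 0.0946 from FPKM. It was 0.0362 without Cdh5 and 0.60 without Eng, the lowest and highest when single members were left out. Of 56 single-member values under an alternative that can move them, 46 stayed within their counting interval, 10 moved out of it and 0 of the called ones changed sign. Across genes, the log2 ratio fell with GC content (Spearman rho -0.44). How far this bears on the ratio of a single gene was not tested. The GC and length correction put Emcn at -0.61, Ets1 at 0.12 and Eng at -0.04. Tek ran from -0.19 to 0.03. No scaling moved the median of all genes by more than 0.1 (the largest shift was -0.06, under median-of-ratios factors). No paired analysis was possible because each group has 1 library, and for the same reason no library could be left out. Members under 50 counts have intervals too wide to place.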

Other observations

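Of 14 genes of the blood-retina barrier, 9 passed the count minimum, and 2 of them were at least 2-fold higher in the library labelled KO and 0 were lower. Their median log2 ratio was 0.44. The drug efflux pump gene Abcb1a had 2335 counts in the library labelled KO and 774 in the library labelled WT (3.25-fold, 3.0 to 3.53). Tfrc, the transferrin receptor gene, which proliferating cells also express, had 728 (KO) and 297 (WT) counts (2.64-fold, 2.30 to 3.03). Ly6c1 had a log2 ratio of 0.88, the glucose transporter gene Slc2a1 0.13 and Itm2a -0.73. Mfsd2a, which passed the minimum only through the library labelled KO, had 52 (KO) and 31 (WT) counts (1.81-fold, 1.14 to 2.92). The genes under the minimum went both ways. The barrier transporter gene Slco1a4 had 0 (KO) and 4 (WT) counts, the tricellular junction gene Lsr 0 (KO) and 4 (WT), and Spock2 22 (KO) and 44 (WT). Lef1 had 9 (KO) and 0 (WT) counts, and Slco1c1 had 3 (KO) and 1 (WT).

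Of 8 artery genes 3 passed the minimum and 1 was higher, the gap junction gene Gja4 with 279 and 130 counts in the libraries labelled KO and WT (2.31-fold, 1.87 to 2.87). Efnb2 had a log2 ratio of 0.69 and Unc5b 0.63. Under the minimum, the tip cell and arterial gene Dll4 had 9 (KO) and 11 (WT) counts and Sema3g 10 (KO) and 15 (WT). Gja5 had 10 (KO) and 1 (WT) counts, Hey1 27 (KO) and 18 (WT), and Bmx 0 in both. Of 5 lymphatic genes 2 passed. Pdpn, which stromal cells also make, had 18319 (KO) and 9619 (WT) counts (2.05-fold), and Reln had a log2 ratio of 0.52, while the lymphatic markers Lyve1 and Ccl21a had 0 in both and Prox1 had 5 (KO) and 3 (WT).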
